A study of Mus musculus with 8 samples.

Results

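The cytosolic ribosomal proteins examined here were 55 of the 19938 genes measured on the arrays, 34 of the large subunit (symbols that start with Rpl) and 21 of the small subunit (Rps). A gene was taken when at least 1 probe set naming it alone carried a symbol of Rpl or Rps, digits and at most 1 further letter, and the brightest such probe set, by its mean signal, stood for it. RNA came from gastrocnemius, a mixed and mainly fast calf muscle, of HDAC5 KO mice (4 arrays) and of their wild type (WT) littermates (4 arrays). All mice were 30 weeks old, fed low-fat chow and otherwise untreated. HDAC5 is one of the class IIa histone deacetylases and holds back MEF2 factors in muscle. The labels name no tissue-specific driver for the knockout, and they do not say which piece of Hdac5 it removes. Samples are numbered in their titles with no word on whether each is a separate animal, so p-values measure only the spread between these samples, which may be technical.

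A ribosome joins a small subunit, which reads the mRNA, to a large subunit, which makes the peptide bond, and each holds 1 copy of nearly every ribosomal protein. The mRNAs of these proteins are among the most abundant of any cell, and most begin with a 5′ terminal oligopyrimidine (TOP) tract, a C followed by a run of C and T, through which the kinase complex mTORC1 controls their translation. A few proteins have tissue-restricted paralogs. The one known best from muscle is Rpl3l, which is made in skeletal muscle and heart and takes the place of Rpl3 near the peptidyl transferase centre.

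The family could be followed only in part. RefSeq lists 77 protein-coding genes whose symbols meet the rule, and 54 of them were among the 55 genes. The remaining gene, Rps4l, is typed as a transcribed pseudogene. Another 16 family genes, Rpl3 and Rpl11 among them, shared every probe set with other symbols, and the rest were not analysed here. Rpl3l therefore could not be set against Rpl3. Below, a listed gene counts as measured only when a probe set names its listed symbol alone. A gene found only on shared probe sets counts as not measured, although the arrays carry probes for it. The lists count symbols, so an unmatched symbol may be another name of a measured gene. Ribosomal protein genes have many near-identical processed pseudogenes, and how far those contribute to a probe set was not tested.

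The lines below give 30 bases around the start (build GRCm38.p6, from RefSeq), shown because they include clear TOP starts, the promoter of the gene with the smallest p-value (Rpl27) and that of Rpl3l. Capitals mark a first transcribed base C and the pyrimidines that follow it where there are at least 4, and the lines without capitals have fewer or another first base.
Rps6, chr4:86857353-86857382, minus strand: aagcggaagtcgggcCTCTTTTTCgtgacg
Rpl28, chr7:4792950-4792979, plus strand: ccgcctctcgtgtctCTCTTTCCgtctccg
Rps18, chr17:33955651-33955680, minus strand: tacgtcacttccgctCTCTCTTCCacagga
Rps10, chr17:27635230-27635259, minus strand: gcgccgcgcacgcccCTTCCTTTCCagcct
Rpl27, chr11:101442230-101442259, plus strand: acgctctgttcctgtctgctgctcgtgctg
Rpl3l, first annotated start, chr17:24727811-24727840, plus strand: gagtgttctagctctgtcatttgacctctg
Rpl3l, second annotated start, chr17:24732670-24732699, plus strand: gtcatcaacagctacagtgccccaaatgtc

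Of the 55 genes, 44 matched a RefSeq promoter window (250 bases before to 50 after the start) and 11 did not. Some genes, such as Rps19, have several annotated starts and so several windows. Such a gene counted once if any of its windows matched, which gave it more chances to match. A start at C followed by at least 4 pyrimidines was annotated for 9 of the 44 genes (20.5%), against 3.01% of all 27025 genes with windows. These 9 were Rpl14, Rpl28, Rpl32l, Rpl38, Rps6, Rps10, Rps15a, Rps18 and Rps21. The core CCGGAA, the ETS-type motif that GABPA binds, was found for 22 of the 44 genes (50%) on either strand, against 16.7% of all genes. TGACG was found for 20 (45.5%), against 23%. CANNTG, the E-box of myogenic factors, was in 25 (56.8%), against 75% of all genes. TATAAA within the 40 bases before the start, on the given strand, was found for 0 of the 44 genes, against 2.78% of all genes. Another 2 searches were added after the windows had been read. A C followed by at least 7 pyrimidines within 20 bases of the start, on the given strand, was found for 19 genes (43.2%, against 14.5%). CTCTTT within 40 bases, on the given strand, was found for 11 (25%, against 3.73%). The searches overlap in letters, and a match is a description of the window only.

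The MEF2 consensus was found for 1 of the 44 genes (2.27%, against 3.7% of all genes). The gene was Rpl3l. The match, in capitals, lies in the stretch from 160 to 61 bases before its second annotated start.
Rpl3l, chr17:24732525-24732624, plus strand: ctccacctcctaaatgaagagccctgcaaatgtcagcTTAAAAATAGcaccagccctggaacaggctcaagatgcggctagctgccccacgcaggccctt
The 100 bases before the start of Rpl27 are shown for its CCGGAA cores, which follow each other without a gap and stand in capitals.
Rpl27, chr11:101442145-101442244, plus strand: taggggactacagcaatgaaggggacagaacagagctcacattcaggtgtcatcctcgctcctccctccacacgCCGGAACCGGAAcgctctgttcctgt

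The deposited log2 signals correlated between arrays at 0.988 to 0.995 over 35556 probe sets. Hdac5 fell by 1.497 in HDAC5 KO muscle, to 8.33 ± 0.04, against 9.83 ± 0.08 in WT muscle (SD, n = 4 each; limma, adjusted p = 1.742e-07). In bulk tissue, fewer cells of a type and less RNA per cell cannot be told apart. Each probe set has its own response, so signals of different genes do not rank their transcript amounts, and a percentile below places a signal within the range of the arrays only.

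Rpl3l was nearly the same in both genotypes. Its log2 signals were 12.58, 12.59, 12.56 and 12.51 in HDAC5 KO muscle, against 12.55, 12.56, 12.56 and 12.54 in WT muscle. The WT arrays lay within the range of the HDAC5 KO arrays, whose lowest was also the lowest of all 8. The means were 12.56 ± 0.04 in HDAC5 KO and 12.55 ± 0.01 in WT muscle (SD, n = 4 each). The difference was 0.010 (SE 0.051), a 1.01-fold ratio with a 95% interval of 0.932 to 1.09-fold (limma, adjusted p = 0.976; exact 2-sided permutation p = 0.629). Rpl3l has 1 probe set, so no other probe set bears on this value.

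Across the family the differences were small and mostly negative. None of the 55 genes passed an adjusted p under 0.05 in limma, where 0.0652% of all genes did, and the smallest adjusted p was 0.295, for Rpl27. At an unadjusted p under 0.05, 5 genes were lower in HDAC5 KO muscle (9.09%, against 3.18% of all genes), and 0 were higher (against 4.72%). The arrays of the genotypes did not overlap for 6 genes (10.9%, against 4.9% of all genes). The HDAC5 KO arrays lay below for Rpl27, Rpl28, Rpl10, Rps29 and Rps15 (1.99% of all genes), and above for Rps14 (2.91%).

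The mean was lower in HDAC5 KO muscle for 39 of the 55 genes (70.9%, against 48.6% of all genes), 26 of 34 in the large subunit and 13 of 21 in the small subunit. The median difference was -0.041, a 0.972-fold ratio, against 0.003 over all genes. It was -0.041 in the large and -0.047 in the small subunit. The median standard error of a single gene was 0.063 in the family and 0.071 over all genes. The family's signals were bright, at a median of the 96.2nd percentile of genes, and the part that this and the smaller standard errors have in the counts was not tested. All 55 intervals lay within 0.5 of 0 on the log2 scale and 38 within 0.25. The lowest bound was -0.453 (Rpl29), and the highest was 0.374 (Rpl12).

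**Figure D1:**
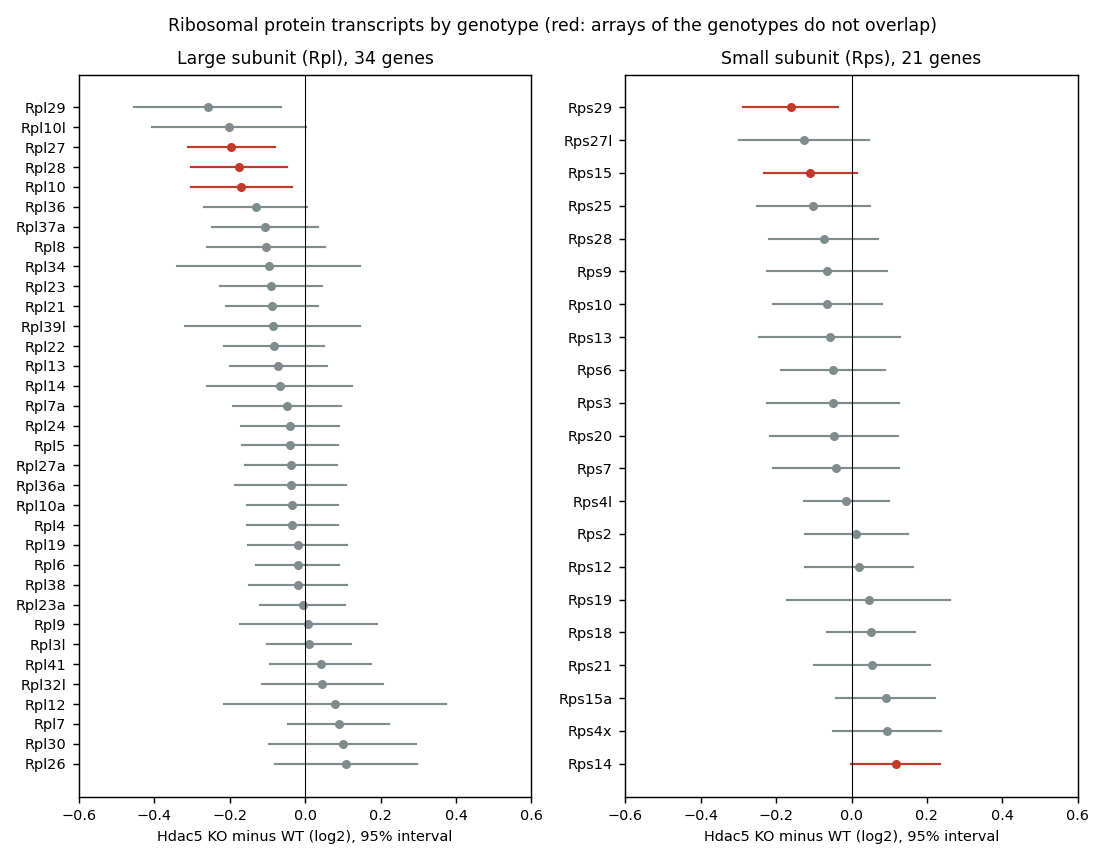
Difference between HDAC5 KO and WT muscle for each of the 55 ribosomal protein genes, in log2 units, with its 95% interval from limma (n = 4 arrays each). The points run from -0.258 (Rpl29) to 0.118 (Rps14), and the 6 genes whose arrays did not overlap are red.

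The large-subunit genes supplied the lowest values. Rpl27, a protein mutated in some patients with Diamond-Blackfan anaemia, a failure of red cell formation, had log2 signals of 10.83, 10.81, 10.79 and 10.74 in HDAC5 KO muscle, against 11.00, 10.98, 11.03 and 10.95 in WT muscle. Every HDAC5 KO array lay below every WT array. The difference was -0.196 (SE 0.053), a 0.873-fold ratio with an interval of 0.806 to 0.946-fold (limma, adjusted p = 0.295; exact 2-sided permutation p = 0.0286, the smallest this design allows).

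Rpl28 had 12.97, 12.99, 12.86 and 12.93 in HDAC5 KO muscle, against 13.11, 13.03, 13.20 and 13.12 in WT muscle. The arrays did not overlap, and the difference was -0.176 (SE 0.058; limma, adjusted p = 0.449). Rpl10, an X-linked gene whose protein, in yeast, joins late and is needed for the subunits to pair, had 13.05, 12.98, 12.96 and 13.04 in HDAC5 KO muscle, against 13.19, 13.06, 13.27 and 13.19 in WT muscle. The lowest WT array was just above the highest HDAC5 KO array. Its difference was -0.169 (SE 0.061; limma, adjusted p = 0.469). Without WT replicate 3, the highest array, its unadjusted p was 0.0589.

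Rpl29, a basic protein also known to bind heparin, differed most in size. It had 11.48, 11.45, 11.55 and 11.58 in HDAC5 KO muscle, against 11.54, 11.67, 11.95 and 11.92 in WT muscle. The WT arrays were spread widely, with an SD of 0.20 against 0.06 in HDAC5 KO muscle, and the lowest of them lay among the HDAC5 KO arrays. The difference was -0.258 (SE 0.089; limma, adjusted p = 0.461). Without both HDAC5 KO replicate 1 and WT replicate 4, its unadjusted p was 0.0778.

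Further large-subunit genes with negative differences missed the unadjusted threshold. Rpl36 had -0.131 (SE 0.063), and Rpl37a, a zinc-binding protein, had -0.107 (SE 0.064). Both had overlapping arrays. From Rpl8, at the peptidyl transferase centre, to Rpl23a, at the peptide exit, the other 18 negative differences outside the testis-expressed paralogs ran from -0.103 to -0.006. They include Rpl5, which carries 5S rRNA into the subunit, at -0.041 (SE 0.058), and Rpl23, which can bind Mdm2, at -0.090 (SE 0.062).

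Positive differences in the large subunit were all within the spread of the arrays. Rpl26, whose protein lies at the peptide exit and is known to bind p53 mRNA, had 9.38, 9.36, 9.38 and 9.35 in HDAC5 KO muscle, against 9.46, 9.37, 9.19 and 9.02 in WT muscle, a difference of 0.109 (SE 0.086). The HDAC5 KO arrays were close together and the WT arrays were spread on both sides of them. Rpl30 had 0.099 (SE 0.090), Rpl7 0.089 (SE 0.062), Rpl32l 0.045 (SE 0.073) and Rpl41, the smallest protein of the ribosome, 0.041 (SE 0.061). Rpl12 had 0.079 with the widest interval of the family, -0.216 to 0.374, and Rpl9 had 0.008 (SE 0.083).

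In the small subunit, Rps29, a zinc-binding protein, had 12.92, 12.82, 12.83 and 12.75 in HDAC5 KO muscle, against 13.04, 13.01, 12.94 and 12.98 in WT muscle. Every HDAC5 KO array lay below every WT array, by a narrow margin. The difference was -0.161 (SE 0.057; limma, adjusted p = 0.462). Rps15, whose tail reaches the decoding centre, had 12.87, 12.89, 12.87 and 12.92 in HDAC5 KO muscle, against 12.94, 13.06, 13.05 and 12.93 in WT muscle. The highest HDAC5 KO array lay just below the lowest WT array, and the difference was -0.109 (SE 0.056; limma, adjusted p = 0.682).

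Rps14, the gene of the small-subunit platform whose loss of 1 copy causes anaemia in humans, was the only one whose HDAC5 KO arrays all lay above the WT arrays. It had 11.86, 11.78, 11.75 and 11.73 in HDAC5 KO muscle, against 11.66, 11.68, 11.64 and 11.67 in WT muscle. The highest value was HDAC5 KO replicate 1. The difference was 0.118 (SE 0.054; limma, adjusted p = 0.630). Other positive differences were those of Rps4x, an X-linked gene, at 0.094 (SE 0.066), Rps15a at 0.090 (SE 0.061), Rps21 at 0.054 (SE 0.070) and Rps18 at 0.052 (SE 0.054). Each of these had overlapping arrays.

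Among proteins of the decoding centre and mRNA entry, 5 of 8 listed genes were measured, with a median of -0.064: Rps15 as above, Rps28 at -0.074, Rps9 at -0.064, Rps3 at -0.049 and Rps2 at 0.013. At the peptide exit, 5 of 9 were measured, Rpl22 at -0.081, Rpl19 at -0.020, Rpl38 at -0.019, Rpl23a at -0.006 and Rpl26 as above, and 0 of the 5 had an unadjusted p under 0.05. Of 9 listed genes mutated in Diamond-Blackfan anaemia, 4 were measured: Rps10 at -0.064, Rpl5 at -0.041, Rps7 at -0.040 and Rps19 at 0.045. The list is not complete, and Rpl27, at -0.196, is a further gene of that disease outside it. Rps6, the substrate of the S6 kinases that act below mTORC1, had -0.050 (SE 0.063). Another 5 small-subunit genes, Rps12, Rps13, Rps20, Rps25 and Rps4l, lay between -0.101 and 0.020.

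**Figure D2:**
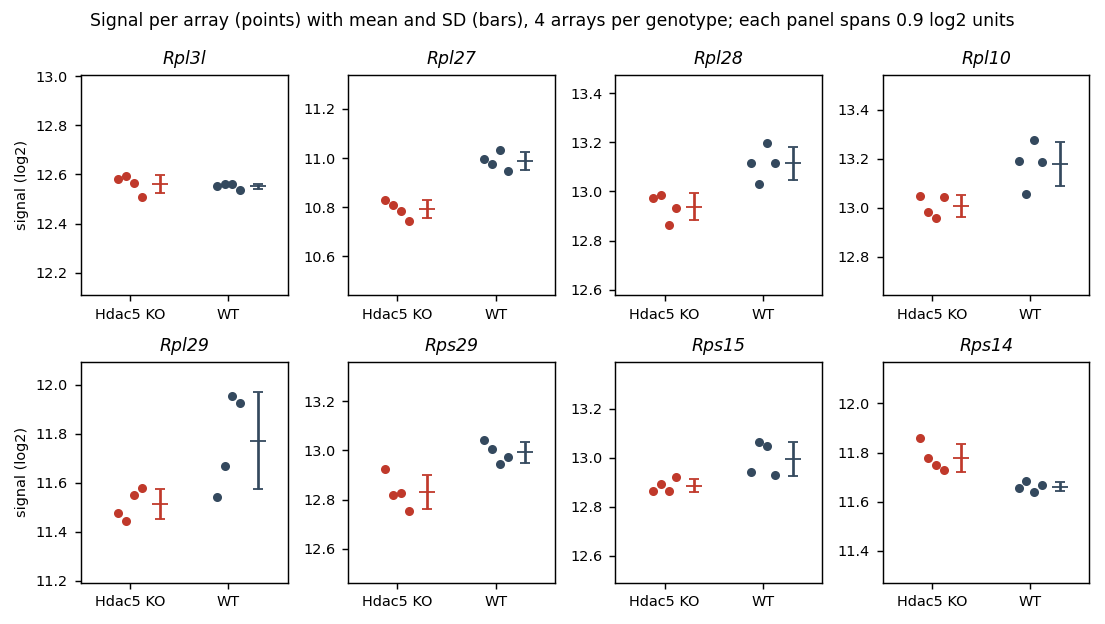
Log2 signal on each array (points) with mean and SD (bars) for 8 genes, HDAC5 KO left of WT, 4 arrays each; every panel spans the same number of log2 units. Rpl3l is level, the HDAC5 KO arrays of Rpl27, Rpl28, Rpl10, Rps29 and Rps15 lie below the WT arrays, those of Rps14 lie above, and Rpl29 overlaps.

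Of the 8 listed paralogs with tissue-restricted or stress-linked expression, 6 were measured, and 0 had an unadjusted p under 0.05. Rpl10l, a testis-expressed copy of Rpl10, had 8.22, 8.35, 8.28 and 8.66 in HDAC5 KO muscle, against 8.45, 8.54, 8.63 and 8.70 in WT muscle. HDAC5 KO replicate 4 lay among the WT arrays, and the difference was -0.202 (SE 0.094; limma, adjusted p = 0.634). Rps27l, which p53 induces, had -0.126 (SE 0.079), with 10.97, 10.86, 10.78 and 10.70 in HDAC5 KO muscle and 11.10, 10.99, 10.92 and 10.80 in WT muscle, so that the ranges overlapped widely. Rpl39l, another testis-expressed copy, averaged 5.65 in HDAC5 KO and 5.74 in WT muscle, at the 8.42nd percentile of gene signal, where changes are compressed. Rpl7l1, outside the symbol rule, had -0.027 (SE 0.087), and Rps4l had -0.014 (SE 0.052). Of the parents of these paralogs, Rpl10 is given above, and Rpl36a had -0.038 (SE 0.067).

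The genes with the TOP starts listed above had differences within the range of the rest of the family. Their 9 differences had a median of -0.019 and ran from -0.176 (Rpl28) to 0.090 (Rps15a). The 35 other genes with a window had a median of -0.041 and a range of -0.202 to 0.109. Since most ribosomal protein mRNAs begin with a TOP tract, these 35 cannot be taken as genes without one. The comparison therefore does not bear on TOP control.

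Single arrays were low or high for much of the family, in both genotypes. The mean level over the 55 genes was 11.46, 11.42, 11.39 and 11.35 in HDAC5 KO muscle, against 11.48, 11.45, 11.40 and 11.46 in WT muscle. The ranges overlapped. HDAC5 KO replicate 4 was the lowest array for 27 of the 55 genes (49.1%, against 9.26% of all genes) and the highest for 0 (against 17.8%), while over all genes it averaged 0.025 above the gene means. HDAC5 KO replicate 1 was the highest array for 15 genes (27.3%, against 17.4% of all genes), 10 of them in the small subunit, and WT replicate 4 for 14 (25.5%, against 18.8%). WT replicate 3 was the lowest array for 12 genes (21.8%, against 9.33%). The median difference of -0.041 was -0.011 without HDAC5 KO replicate 4, -0.022 without WT replicate 1, -0.065 without HDAC5 KO replicate 1 and -0.067 without WT replicate 3. The mean signals of the small-subunit genes were 11.64, 11.55, 11.54 and 11.48 in HDAC5 KO muscle, against 11.62, 11.60, 11.51 and 11.57 in WT muscle, with overlap at both ends.

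**Figure D3:**
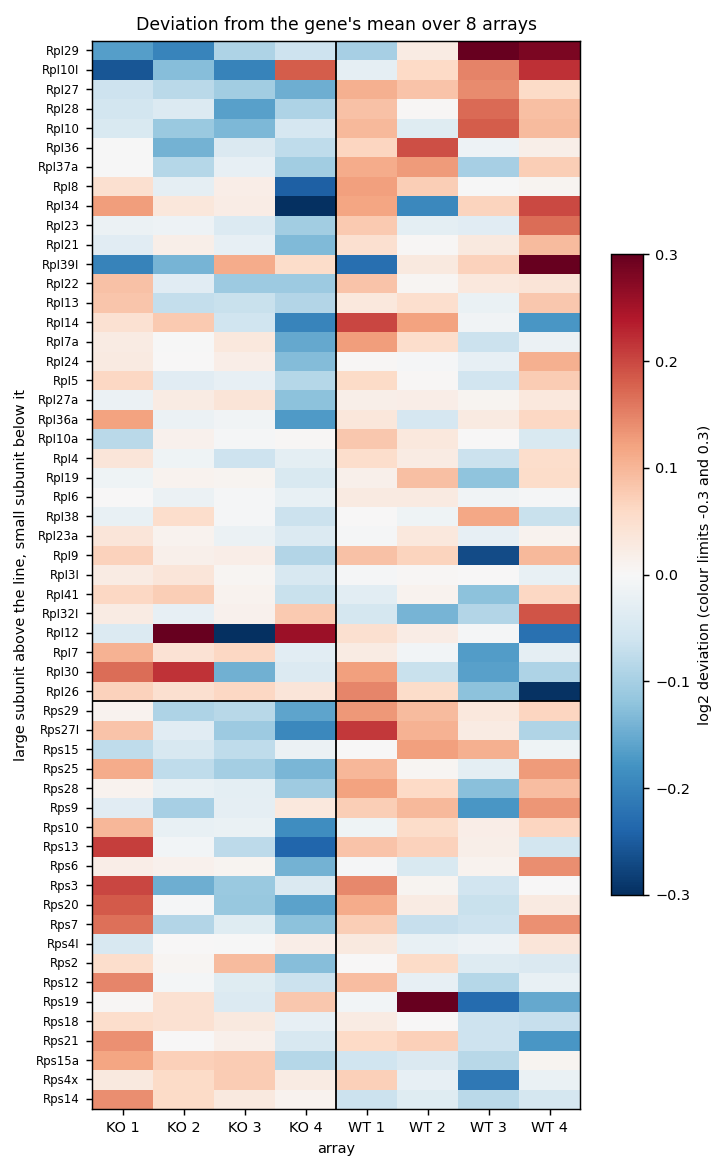
Deviation of each array (columns, HDAC5 KO left of WT) from the mean of each gene over the 8 arrays (rows), in log2 units; colours stop at -0.3 and 0.3. The column of HDAC5 KO replicate 4 is blue for most genes, and those of HDAC5 KO replicate 1 and WT replicate 3 lean opposite ways, most clearly in the small-subunit rows at the bottom.

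Most genes had several probe sets, which gives a check of each gene within the same arrays. The 55 genes had 205 probe sets, 1 for 19 genes and more for 36, with 14 for Rps12. Probe sets of a gene share a target, and 5 genes held some with identical values, so they are not independent. All 5 probe sets of Rpl28 lay between -0.211 and -0.176, all 6 of Rpl10 between -0.186 and -0.168, and all 4 of Rps29 between -0.190 and -0.161. Each of these 15 probe sets had an unadjusted p under 0.05 in a limma fit of all 35556 probe sets, whose standard errors differ slightly from those of the fit by gene. The 4 of Rpl27 ran from -0.196 to -0.106, with its brightest the lowest, and 3 had a p under 0.05. Only 3 of these 4 were distinct, because a pair with a p under 0.05 held identical values (-0.139 each).

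Other genes had probe sets on both sides of the threshold or of 0. For Rpl21, 4 of 9 probe sets had an unadjusted p under 0.05, with a range from -0.149 to -0.045, although its brightest, at -0.087, did not. All 9 of Rpl36 were negative, from -0.133 to -0.099. The 3 of Rps15 ran from -0.136 to -0.109 and both of Rps14 were positive, at 0.071 and 0.118. Signs differed between the probe sets of 11 genes, and 0 of these had a gap of 0.2 or more between its highest and lowest. The widest gap was 0.113 in Rps6, whose brightest probe set had the lowest difference. Of the 205 probe sets, 138 were lower in HDAC5 KO muscle, against 51.6% of all probe sets in that fit. At an unadjusted p under 0.05, 26 of the 205 (of 8 genes) were lower, against 3.71% of all probe sets, and 1 was higher, against 4.07%. Of the 26, Rpl10 gave 6, Rpl28 gave 5, and Rps29 and Rpl21 gave 4 each. These counts depend on how many related probe sets a gene has, so they do not compare directly with the shares of all probe sets. The 1 higher probe set was the brighter one of Rps14, whose p was 0.0452 in that fit and 0.0502 in the fit by gene.

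**Figure D4:**
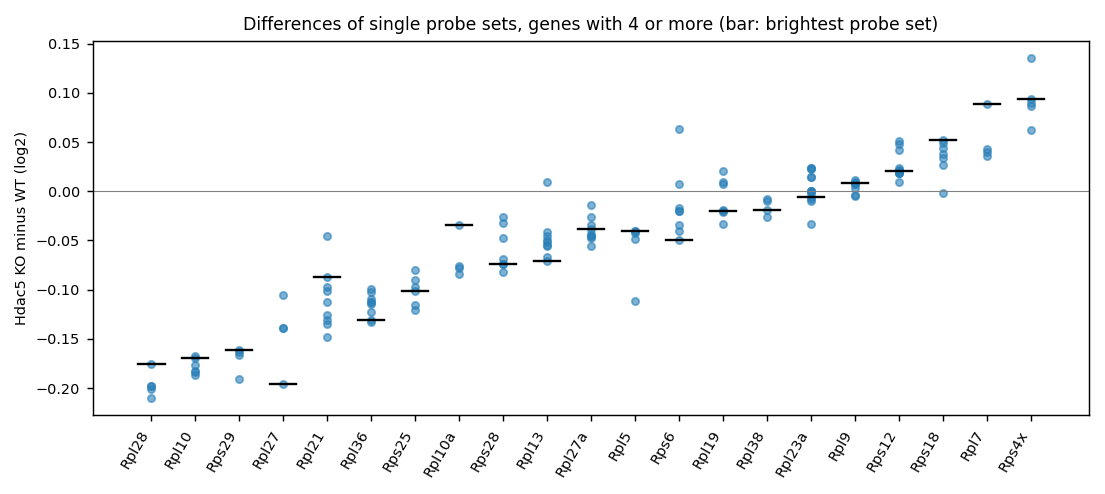
Difference between HDAC5 KO and WT muscle in log2 units for each probe set (points) of the genes with 4 or more. Genes are ordered by the median over their probe sets, and bars mark the brightest probe set. All probe sets of Rpl28, Rpl10, Rps29, Rpl27, Rpl21 and Rpl36 are negative, and those of Rps6 lie on both sides of 0.

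Rpl27 lies near the targeted gene. Both are on chromosome 11, and in RefSeq order Rpl27 is 43 annotated genes, 24 of them tested, from Hdac5. No other family gene measured is within 100 annotated genes. Among the 200 tested genes nearest to Hdac5, 100 on each side, 22 (11%) had an unadjusted p under 0.05, against 7.9% of all genes. Of the 200, 12 were lower in HDAC5 KO muscle at that threshold, against 3.18% of all genes. The sequence around a targeted locus can stem from another strain, and its part in the Rpl27 value was not tested. The other family genes on that chromosome, all farther from Hdac5, were Rpl38, Rpl19, Rpl23, Rpl23a and Rpl26. They had -0.019, -0.020, -0.090, -0.006 and 0.109.

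The other translation lists had medians on both sides of 0. Of the 13 symbols listed for ribosomal proteins with names outside the symbol rule, 7 were measured, with a median of -0.027. The stalk proteins of the large subunit differed in sign: Rplp0 averaged 13.14 in HDAC5 KO and 13.24 in WT muscle, a difference of -0.100 (SE 0.053) with separate arrays, Rplp1 had -0.100 (SE 0.061), and Rplp2, which binds the elongation factors with it, had 0.174 (SE 0.071; limma, adjusted p = 0.557), with HDAC5 KO arrays all above. Fau, a ubiquitin-like fusion with Rps30, had -0.081 (SE 0.064).

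Initiation factors had the highest median of these lists. Of 41 listed, 35 were measured, with a median of 0.034. At an unadjusted p under 0.05, 5 (14.3%) were higher, against 4.72% of all genes, and 0 were lower, against 3.18%. Pabpc1, the poly(A)-binding protein, averaged 12.57 in HDAC5 KO and 12.26 in WT muscle, a difference of 0.315 (SE 0.101; limma, adjusted p = 0.427). Eif4e3, a cap-binding paralog, had 0.207 (SE 0.068), and Eif1a had 0.188 (SE 0.068), both with HDAC5 KO arrays all above the WT arrays. Elongation and termination factors (15 of 16 measured) had a median of 0.018, with 2 (13.3%) higher at that threshold, against 4.72% of all genes. These were Eif5a2 at 0.234 (SE 0.088) and Eef2k, the kinase that inhibits elongation factor eEF2, at 0.148 (SE 0.065). The third by p was Gspt1, a release factor, at 0.092 (SE 0.056).

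The genes that make and govern ribosomes differed in both directions. The list of RNA polymerase I and rDNA transcription held 24 symbols, of which 21 were measured (median -0.015). Polr2k and Znrd1, both polymerase subunits, had -0.308 each (SE 0.092 and 0.102), while Twistnb, also a subunit, had 0.227 (SE 0.081). These 3 were the ones with an unadjusted p under 0.05 (14.3%, against 7.9% of all genes in either direction). In the mTORC1 and TOP list (23 of 24 measured, median 0.003), Larp4, a poly(A)-tract binding protein, had 0.133 (SE 0.056). It was the only one under that threshold (4.35%, against 7.9% of all genes). Mlst8, a subunit of the mTOR complexes, had 0.133 (SE 0.070), and Myc, a driver of ribosome synthesis, -0.209 (SE 0.121). In these 5 lists 0 genes passed the adjusted threshold in limma. The difference between the lists was not tested.

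**Figure D5:**
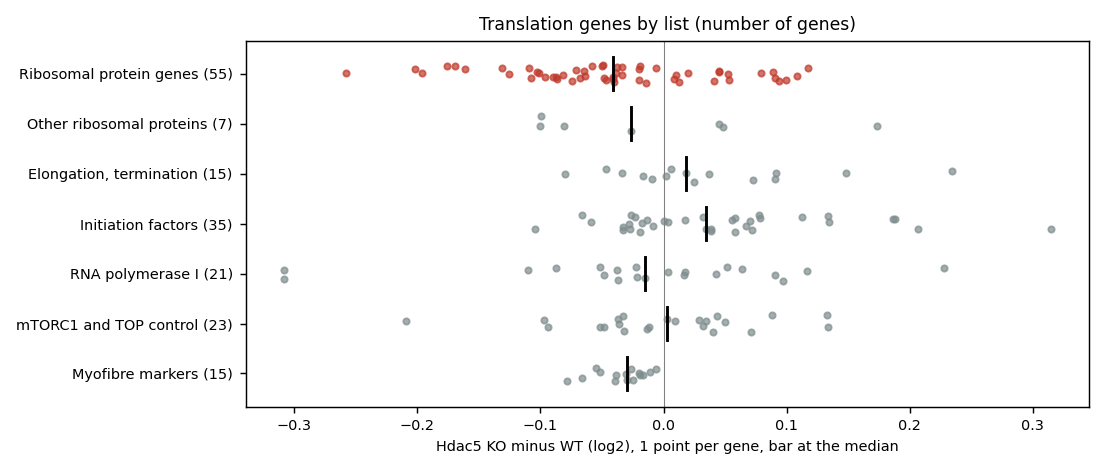
Difference between HDAC5 KO and WT muscle in log2 units for each gene (points) of the ribosomal protein family, of 5 further translation lists and of the myofibre markers, with a bar at each median. The family has a median of -0.041 and the initiation factors 0.034; points of all lists lie on both sides of 0 except the myofibre markers.

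Markers of cell types and fibre types also differed between these arrays. All 15 myofibre markers, Ryr1 and Ttn among them, had negative differences, with a median of -0.030 and mean levels of 14.28 to 14.31 in HDAC5 KO, against 14.31 to 14.33 in WT muscle. All 9 genes of the slow fibre list were negative, with a median of -0.574. At an unadjusted p under 0.05, 8 were lower (88.9%, against 3.18% of all genes). The other was Myh2, a fast type IIa myosin heavy chain that the list includes, at -0.052 (SE 0.076). Of 15 macrophage markers 14 were measured, all positive with a median of 0.274. At an unadjusted p under 0.05, 8 of them were higher (57.1%, against 4.72% of all genes). Their mean level was 8.36 to 8.68 in HDAC5 KO against 8.08 to 8.42 in WT muscle. Fibroblast markers (11 of 12 measured) had a median of 0.137 and 5 were higher at that threshold (45.5%, against 4.72% of all genes). All 7 tendon markers were negative, with a median of -0.264 and 4 lower at that threshold (57.1%, against 3.18% of all genes). So were the 5 of 8 Schwann cell markers measured, with a median of -0.133 and 1 at that threshold (20%). Adipocyte markers (7 of 8 measured) had mean levels of 9.00 to 9.29 in HDAC5 KO, against 8.31 to 9.95 in WT muscle, where WT replicate 2 was the highest array and WT replicate 3 the lowest for each of the 7. Endothelial, satellite cell and lymphocyte markers had medians of 0.026, -0.00095 and 0.0041. The part of these shifts in the ribosomal protein values was not tested.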

How the data were processed

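The files hold 1 log2 value per probe set and array, which the authors made with Affymetrix Expression Console version 4.0, per the submitters' processing notes. Neither the labels nor the notes say how background was corrected or probes were summarised and normalized. The log2 scale was inferred from the range of the deposited values. Per the labels, total RNA (150 ng, integrity number above 8) was amplified and labelled for each array. Array medians lay between 7.69 and 7.77. The number of arrays limits the precision, and very bright or dim signals compress a change.

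The platform annotation gave 1 gene symbol to 21789 of 35556 probe sets and several to 1621, and did not list 12146. The probe set of highest mean was kept for each of 19938 genes. All genes were fitted with limma 3.58.1 (lmFit, eBayes) in R 4.3.3 on genotype alone, and p-values were adjusted over all genes by the Benjamini-Hochberg method. Differences are HDAC5 KO minus WT. For single genes, the exact permutation test (2-sided) ran over the 70 arrangements of the arrays and cannot go below 0.0286. Tables and plots were made with Python 3.11.15 and matplotlib 3.10.9. The fit was tested on simulated data.

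The family, the lists and the rules were chosen with earlier results of these data known. The rule for named genes took Hdac5, Rpl3l, the 10 higher and 10 lower members of smallest p, the genes of the role lists, members within 100 annotated genes of Hdac5, and the 3 genes of smallest p in each translation list. Promoter windows came from RefSeq (GRCm38.p6). The alternatives were other scalings, filters, variance models and probe set choices, a replicate block, and leaving out arrays. The planned comparison of Rpl3l with Rpl3 was not run, because Rpl3 has no probe set of its own.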

Additional observations from a re-analysis of the deposited data

Results flagged for a closer look

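Of 112 groups of 4 arrays examined (each of the 55 genes and Hdac5, in each genotype), 6 had 1 array far from the other 3 by Dixon's test, which chance flags in about 1 group of 20. HDAC5 KO replicate 4 was involved in 3 of them. It was the lowest array for Rps6, at 12.7845 against 12.93 to 12.95 on the other HDAC5 KO arrays, and for Rpl24, at 11.3788 against 11.51 to 11.53. It was the highest of the HDAC5 KO arrays for Hdac5, at 8.39384 against 8.31 to 8.32. HDAC5 KO replicate 1 was the highest array for Rpl13, at 11.9453 against 11.77 to 11.80, and the lowest for Rpl10a, at 12.8872 against 12.97 to 12.98. WT replicate 3 was the lowest array for Rpl9, at 12.5305 against 12.86 to 12.90 on the other WT arrays, the widest of these gaps.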

How the results depend on the processing

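In 17 alternatives, 0 of the 55 genes passed the adjusted threshold, and the smallest adjusted p was 0.139 (Rpl28, trended and robust eBayes). The median difference stayed negative, between -0.067 and -0.011 when 1 array was left out, and it was -0.026 with arrays centred on their medians, where the median of all genes was 0.018. Genes lower at an unadjusted p under 0.05 numbered 5 (3.18% of all genes), 9 with trended and robust eBayes (3.31% of all genes) and 9 with array weights (4.31%). With 1 array left out they numbered 5 to 8, where 2.34% to 4.72% of all genes were lower. There were 8 without WT replicate 4 (3.29%) and 6 without HDAC5 KO replicate 4 (4.72%). Genes higher numbered 0 (4.72% of all genes), but 1 with quantile normalization, array median centring, dim genes left out, trended and robust eBayes, array weights or all probe sets adjusted together, and 0 to 2 with 1 array left out (2 without HDAC5 KO replicate 4), where 3.68% to 6.42% of all genes were higher. Over all genes, 13 passed the adjusted threshold, but 23 with quantile normalization, 37 with dim genes left out, 44 with trended and robust eBayes, 31 with array weights, 30 with the replicate block, 5 with all probe sets adjusted together, 5 without both HDAC5 KO replicate 1 and WT replicate 4, and 5 to 20 with 1 array left out. The cause of these shifts was not tested.

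Of the 55 genes, 40 kept their sign in every alternative run. With quantile normalization the difference was 0.0044 for Rpl19 and 0.0074 for Rpl23a. With centring it was 0.0092 for Rpl23a and 0.00084 for Rps4l, and with the mean of all probe sets 0.0032 for Rpl23a and 0.038 for Rps4l. Without both HDAC5 KO replicate 1 and WT replicate 4 it was 0.052 for Rpl39l, -0.0013 for Rpl3l, -0.029 for Rps12, -0.015 for Rps2, -0.033 for Rps21 and 0.0089 for Rps4l. With 1 array left out it ran from -0.019 to 0.223 for Rpl12, -0.064 to 0.0074 for Rpl19, -0.019 to 0.0069 for Rpl23a, -0.177 to 0.012 for Rpl34, -0.085 to 0.012 for Rpl36a, -0.044 to 0.016 for Rpl38, -0.176 to 0.00013 for Rpl39l, -0.00048 to 0.028 for Rpl3l, -0.080 to 0.042 for Rpl9, -0.025 to 0.054 for Rps12, -0.137 to 0.012 for Rps13, -0.024 to 0.154 for Rps19 and -0.017 to 0.057 for Rps2.

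Arrays with the same number in both genotypes correlated in their deviations from the group means at 0.338, -0.115, -0.153 and 0.340. HDAC5 KO replicates 1 and 4 correlated best with the WT arrays of the same number, and HDAC5 KO replicates 2 and 3 with WT replicates 3 and 2. Deviations from the mean of a small group are tied to each other, so this check cannot decide whether the numbers pair the samples. With the replicate block, 7 genes were lower (4.40% of all genes) and 0 higher (5.89%) at an unadjusted p under 0.05, and 0 of the 55 passed the adjusted threshold. Rpl3l was not compared with Rpl3 under any setting, because Rpl3 shares its probe sets with other symbols.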
